A study of Homo sapiens with 6 samples.

Results

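Expression of 9 genes that make up or assist the MLL fusion machinery of leukaemia was followed in MV4;11 cells, an established human acute myeloid leukaemia line that the labels describe as MLL-AF4-rearranged. The genes are KMT2A (MLL), AFF1 (AF4), MEN1 (menin), PSIP1 (LEDGF), DOT1L, MLLT1 (ENL), MLLT3 (AF9), MLLT10 (AF10) and JMJD1C. They were chosen by name, and all 9 were found among the 19775 genes that single-gene probe sets of an Affymetrix Human U133 Plus array measured. Cells had been kept for 3 h with 25 nM cortistatin A, an inhibitor of the Mediator kinases CDK8 and CDK19 (3 arrays), or with the solvent DMSO (3 arrays). Both groups carried the same rearrangement and the same culture medium, and no untreated or MLL-wild-type cells were compared. The labels speak of triplicate plating and name no separate cultures, so the p-values rest on the spread among 6 samples that may be technical repeats. Values are deposited log2 RMA levels, 1 per probe set and array, and a log2 change is cortistatin A minus DMSO. The 9 genes had 41 single-gene probe sets, and the main probe set of a gene is the one with the highest mean over the 6 arrays.

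KMT2A encodes a histone H3 lysine-4 methyltransferase that keeps HOX and progenitor genes active in blood stem cells. In leukaemia its N-terminal part, which binds CG-rich DNA, menin and LEDGF, is joined to a partner such as AF4, AF9, ENL or AF10. These partners belong to the super elongation complex, which carries the elongation kinase P-TEFb, or to the complex of DOT1L, the histone H3 lysine-79 methyltransferase. The fusion transcript of t(4;11) begins at the KMT2A promoter and ends in AFF1 sequence. A probe set in the 3' part of AFF1 can therefore read both native AFF1 and the fusion, and one in the 3' part of KMT2A does not read the fusion. The position of each probe set in its transcript was not used here, so native and fused transcripts could not be told apart.

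The promoter windows of the rearranged pair are shown because the first of them starts the fusion transcript and the other starts native AFF1. Each holds 250 bases before and 50 after the start in RefSeq (GRCh38.p14), with every CG, the dinucleotide that the CXXC domain of KMT2A binds when unmethylated, in capitals.
KMT2A promoter, chr11:118436242-118436541, plus strand: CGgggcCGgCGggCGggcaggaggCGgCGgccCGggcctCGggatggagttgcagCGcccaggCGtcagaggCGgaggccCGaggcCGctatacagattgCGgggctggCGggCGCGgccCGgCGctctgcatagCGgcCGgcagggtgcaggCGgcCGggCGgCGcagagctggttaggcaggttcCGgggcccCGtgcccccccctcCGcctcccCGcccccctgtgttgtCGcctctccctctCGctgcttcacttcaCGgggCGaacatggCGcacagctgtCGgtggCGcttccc
AFF1 promoter (the upstream of its listed starts), chr4:86934761-86935060, plus strand: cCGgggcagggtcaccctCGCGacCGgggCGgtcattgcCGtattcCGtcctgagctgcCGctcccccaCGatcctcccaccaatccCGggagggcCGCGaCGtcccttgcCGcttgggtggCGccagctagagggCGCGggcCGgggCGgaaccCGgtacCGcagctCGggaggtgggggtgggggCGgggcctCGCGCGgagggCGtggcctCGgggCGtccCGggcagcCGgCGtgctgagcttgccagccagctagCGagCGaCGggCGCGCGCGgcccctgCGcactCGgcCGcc
The KMT2A window holds 36 CG and the AFF1 window 42, counts that 12.7% and 5.85% of all 35116 listed promoter windows reach or exceed. CG reads the same on both strands, and 96.0% of all windows hold at least 1. Windows were listed for 8 of the 9 genes, with 6 to 45 CG (median 34.5 over all their starts), against a median of 14.0 in all windows. The window with 6 CG and the one with 44 CG both belong to JMJD1C, at different starts. Which start was in use was not measured, and the counts are a description of the sequence only.

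None of the 9 genes passed the test between cortistatin A and DMSO (limma, Benjamini-Hochberg adjusted p under 0.05 over all genes). Of all genes 0.582% passed, so a count of 0 among 9 does not set these genes apart. Their changes had a median of 0.015 on the log2 scale, against 0.0065 for all genes tested, with 6 above 0 and 3 below. That split depended on the setting. With arrays centred on housekeeping genes the median was -0.025 with 6 below 0, against -0.033 for all genes. With the 3' minus 5' signal of 3 control mRNAs as a covariate it was -0.043 with 7 below. A further quantile normalization left it at 0.015 with 3 below. An unadjusted limma p under 0.05 was reached by 3 genes, AFF1, JMJD1C and MLLT3, where 12.6% of all genes reached it. The same 3 genes were those whose arrays did not overlap between the groups, as was the case for 19.4% of all genes. A probe set is called bright here if its mean over the 6 arrays lies above 3.744, and dim otherwise. That value is the median of all probe sets other than controls. For the 8 genes with a bright main probe set the changes ran from -0.14 to 0.17. Every one of their 95% intervals ended inside a 1.26-fold change in either direction. RMA makes the arrays' distributions alike, so a change shared by all transcripts would not show. In such bulk samples fewer cells with a transcript and less of it per cell cannot be told apart.

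**Figure D1:**
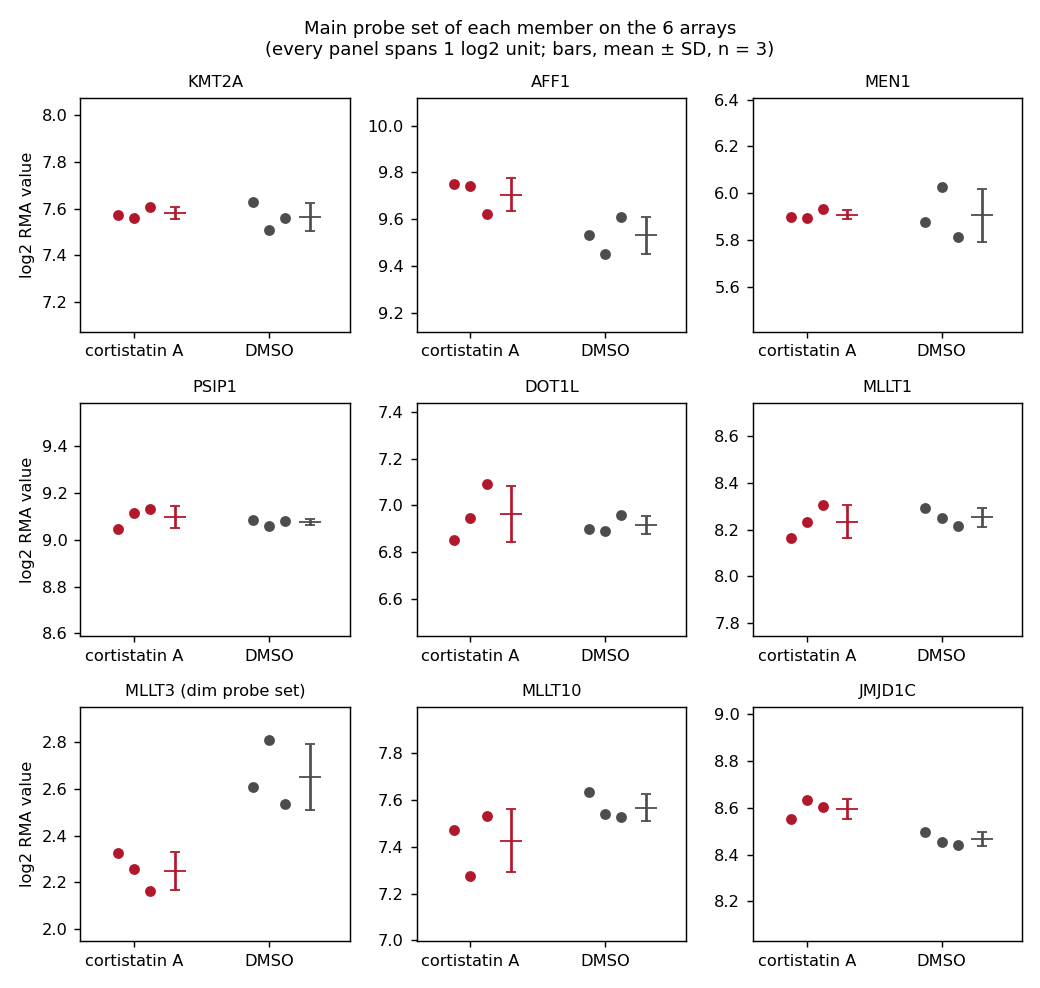
Log2 RMA value (y axis) of the main probe set of each gene on the 3 cortistatin A arrays (red, left) and the 3 DMSO arrays (grey, right), with mean and SD beside the points; each panel spans 1 log2 unit. AFF1 and JMJD1C lie higher on every cortistatin A array, the dim MLLT3 probe set lies lower on every one, and the groups overlap for the other 6 genes.

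The fused pair showed a KMT2A value near 0 and a small difference in AFF1. KMT2A stood at 7.57, 7.56 and 7.61 on the cortistatin A arrays, against 7.63, 7.51 and 7.56 on the DMSO arrays. The groups overlapped, and the change was 0.01 ± 0.05 (SE over 3 arrays per group, limma adjusted p = 0.937). The 95% interval ran from -0.11 to 0.14. AFF1, the scaffold of the super elongation complex, stood at 9.75, 9.74 and 9.62 with cortistatin A, against 9.53, 9.45 and 9.61 with DMSO. All 3 cortistatin A arrays were above all DMSO arrays, although the lowest of the first and the highest of the second nearly touched. The change of 0.17 ± 0.06 (1.13-fold, 95% interval 0.02 to 0.33) did not pass (limma adjusted p = 0.340). A limma fit with a variance trend and robust estimation called it by a narrow margin (adjusted p = 0.0449; up to 0.911 under other settings). The other AFF1 probe sets gave 0.07 and -0.14, and the mean of all 3 gave 0.03.

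Of the factors that tether KMT2A to chromatin neither passed the test. MEN1, which encodes menin, the scaffold bound by the N-terminus of KMT2A, stood at 5.90, 5.89 and 5.93 with cortistatin A, against 5.88, 6.03 and 5.81 with DMSO. The groups overlapped, with the DMSO arrays spread more widely. The change was 0.0038 ± 0.0672 (limma adjusted p = 0.989), and MEN1 has this single probe set. PSIP1, which encodes LEDGF, a reader of methylated histone H3 lysine-36, stood at 9.05, 9.12 and 9.13 with cortistatin A, against 9.09, 9.06 and 9.08 with DMSO. The groups overlapped. The change of 0.02 ± 0.05 (limma adjusted p = 0.893) had the narrowest interval of the 9 genes, -0.09 to 0.14. Its other bright probe sets gave -0.06 and -0.03.

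DOT1L and the adaptor proteins around it were likewise not called. DOT1L stood at 6.85, 6.94 and 7.09 with cortistatin A, against 6.90, 6.89 and 6.96 with DMSO, so the cortistatin A arrays enclosed the DMSO arrays. The change was 0.05 ± 0.07 (limma adjusted p = 0.837), and its second bright probe set was at -0.03. MLLT1, the YEATS-domain reader ENL that binds acetylated histone H3, stood at 8.16, 8.23 and 8.31 with cortistatin A, against 8.29, 8.25 and 8.21 with DMSO. The groups overlapped almost completely (change -0.02 ± 0.06, limma adjusted p = 0.925). MLLT10, the DOT1L cofactor AF10, stood at 7.47, 7.27 and 7.53 with cortistatin A, against 7.64, 7.54 and 7.53 with DMSO. The groups overlapped only at their edge, where the highest cortistatin A and the lowest DMSO array round to the same value. The change of -0.14 ± 0.08 did not pass (limma adjusted p = 0.527, 95% interval -0.33 to 0.05). Without cortistatin A replicate 2, the lowest array, it was -0.07, and with the 3' minus 5' signal of 3 control mRNAs as a covariate it was -0.35 (limma adjusted p = 0.735 and 0.433). With that signal over all control pairs or over 4 human controls it was -0.10 and -0.19. Of the 6 bright MLLT10 probe sets 5 were below 0, between -0.14 and -0.08, and the sixth was at 0.03.

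MLLT3, the ENL homologue AF9, had the smallest p of the 9 genes on a probe set near the floor of the arrays. It stood at 2.33, 2.26 and 2.16 with cortistatin A, against 2.61, 2.81 and 2.53 with DMSO, all dim. All cortistatin A arrays were below all DMSO arrays. The change of -0.40 ± 0.09 (1.32-fold lower) did not pass (limma adjusted p = 0.140, 95% interval -0.61 to -0.20). The other 2 MLLT3 probe sets, also dim, gave 0.13 and 0.05, and the mean of all 3 gave -0.07. With the _x_at and _s_at types left out the remaining probe set gave 0.13 (limma adjusted p = 0.803), so the direction rests on 1 probe set.

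JMJD1C, a jumonji-family protein related to the histone H3 lysine-9 demethylases and described as a coactivator in acute myeloid leukaemia, had 3 bright probe sets, all above 0. It stood at 8.55, 8.63 and 8.60 with cortistatin A, against 8.50, 8.46 and 8.44 with DMSO. All cortistatin A arrays were above all DMSO arrays, and the change was 0.13 ± 0.05 (1.10-fold, limma adjusted p = 0.349). A second bright probe set stood at 8.09, 7.95 and 8.17 with cortistatin A, against 7.82, 7.81 and 7.79 with DMSO. There too the groups did not overlap, with a change of 0.26 ± 0.0745 (limma adjusted p = 0.333 over all probe sets). The third, at 6.01, 5.77 and 5.68 with cortistatin A and 5.69, 5.43 and 5.65 with DMSO, gave 0.23 and overlapped. The 3 dim probe sets gave 0.19, 0.03 and -0.17, the last without overlap. Probe sets of 1 gene read the same RNA and are not replicates.

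Over all 41 probe sets of the 9 genes 0 passed (limma over all probe sets, lowest adjusted p = 0.242), where 0.0513% of all probe sets did. An unadjusted p under 0.05 was reached by 5, against 10.3% of all probe sets, and 8 did not overlap between the groups, against 16.5%. The 24 bright probe sets divided evenly, 12 above 0 and 12 below, from -0.22 to 0.26. KMT2A had the most probe sets, 11, of which 6 were bright with 3 above 0 and 3 below (-0.22 to 0.10). Its 2 probe sets without overlap were both dim and went in opposite directions, at 0.29 and -0.16.

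**Figure D2:**
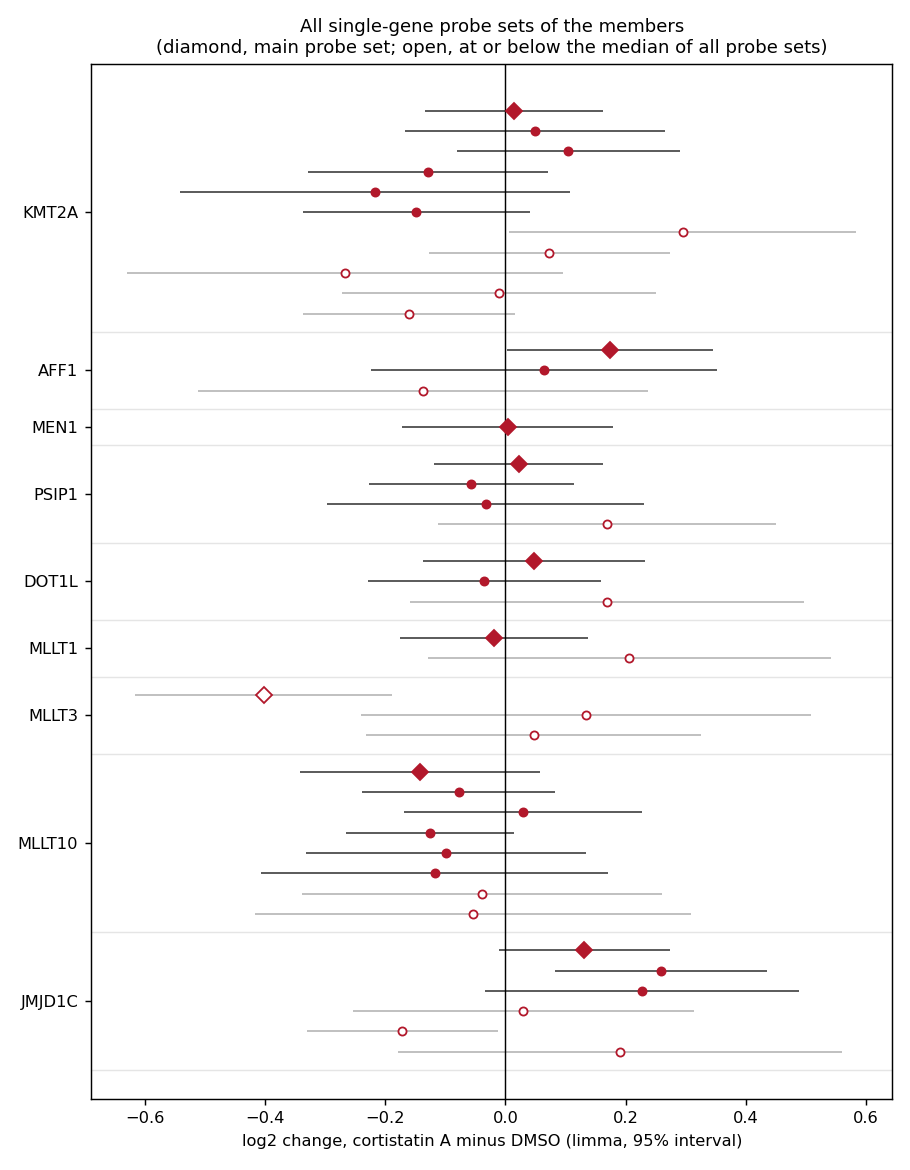
Log2 change, cortistatin A minus DMSO (x axis), with its 95% limma interval for each of the 41 probe sets, grouped by gene; diamonds are main probe sets and open symbols are dim probe sets. The bright JMJD1C probe sets sit between 0.13 and 0.26, those of MLLT10 between -0.14 and 0.03, and those of KMT2A on both sides of 0.

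Genes of the surrounding complexes were read from 8 lists with 97 genes, 88 of them measured, none of which passed (limma adjusted p under 0.05; lowest 0.0560), against 0.582% of all genes. Of these 88 genes 62 lay below 0, or 70.5%, against 47.6% of all genes and 48.5% of the bright genes. An unadjusted p under 0.05 was reached by 20, 13 of them lower and 7 higher, where 5.83% of all genes were lower at that level and 6.81% higher. The groups did not overlap for 26 lower and 11 higher genes, against 9.22% and 10.2% of all genes. The lists were chosen with earlier results of these arrays known, so the counts are a description.

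Among 16 relatives and shared subunits of KMT2A the median was -0.06, with 11 below 0. An unadjusted limma p under 0.05 was reached by 3, all lower, where 5.83% of all genes were lower at that level. NCOA6, a coactivator subunit of the KMT2C and KMT2D complexes, stood at 7.62, 7.68 and 7.75 with cortistatin A, against 7.94, 7.84 and 7.84 with DMSO (change -0.19, limma adjusted p = 0.255). KDM6A, the histone H3 lysine-27 demethylase of those complexes, was at -0.18 and the methyltransferase KMT2D at -0.22 (limma adjusted p = 0.257 and 0.300). For these 3 genes the groups did not overlap, but the mean of all probe sets gave -0.05, -0.13 and -0.0076.

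The super elongation complex list of 11 genes had a median of -0.07, with 8 below 0. ELL2, an elongation factor, went the other way, at 6.44, 6.26 and 6.50 with cortistatin A, against 6.01, 5.997 and 5.89 with DMSO. The groups did not overlap, and the change of 0.44 ± 0.08 (1.35-fold) did not pass (limma adjusted p = 0.0861), although it passed with dim genes left out (limma adjusted p = 0.0326; 0.00364 to 0.511 under all settings tried). CCNT2, a cyclin partner of CDK9, was at -0.15, and ELL3, an ELL relative, at -0.20 (limma adjusted p = 0.281 and 0.350).

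Of the 4 measured relatives and partners of AF10, ENL and AF9 the median was 0.09. BCOR, a Polycomb corepressor that binds AF9, was at 0.19 without overlap (limma adjusted p = 0.360). The acetyl-lysine reader YEATS4 was at 0.19 and the AF10 homologue MLLT6 at -0.08 (limma adjusted p = 0.571 and 0.718). The PAF1 complex, an elongation complex that binds KMT2A, had all 6 genes between -0.02 and 0.07 and a median of -0.0030. Its members with the smallest p were PAF1 (0.07), SKIC8 (0.02) and RTF1 (-0.02), with limma adjusted p from 0.766 to 0.897.

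Of the 9 measured relatives and partners of LEDGF, menin and JMJD1C the median was -0.02. KDM3A, a histone H3 lysine-9 demethylase and homologue of JMJD1C, stood at 8.04, 7.95 and 8.003 with cortistatin A, against 8.35, 8.39 and 8.30 with DMSO. All cortistatin A arrays were below all DMSO arrays, by more than the spread within either group, but the change of -0.35 ± 0.05 (1.27-fold lower) did not pass (limma adjusted p = 0.0577). It passed with dim genes left out, with values floored at the median, with a further quantile normalization and with a robust variance trend (limma adjusted p from 0.000266 to 0.0491; up to 0.411 under other settings), and averaged over its probe sets it was at -0.15. JMJD1C at 0.13 and KDM3A at -0.35 thus lay on opposite sides of 0, a difference that was not tested. POGZ, which binds LEDGF, was at -0.23, and HDGFL3, a LEDGF relative on a dim probe set, at 0.19 (limma adjusted p = 0.341 and 0.576).

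Other genes known to be fused to KMT2A were mostly below 0, 20 of 24, with a median of -0.05. EP300, a histone acetyltransferase, stood at 7.44, 7.41 and 7.46 with cortistatin A, against 7.67, 7.64 and 7.71 with DMSO. The groups did not overlap, and the change was -0.23 ± 0.05 (1.18-fold lower, limma adjusted p = 0.131; 0.00954 to 0.451 over its alternatives). Its homologue CREBBP was at -0.17 and the ubiquitin ligase CBL at -0.21 (limma adjusted p = 0.267 and 0.319), and CREBBP averaged over its probe sets was at 0.0050. Of 8 measured chromatin regulators required in KMT2A-rearranged leukaemia 7 lay below 0, with a median of -0.08. The acetyltransferase KAT7 was at -0.17, and the Polycomb subunits SUZ12 and EZH2 were at -0.10 and -0.11 (limma adjusted p from 0.374 to 0.552).

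Known target genes of KMT2A fusions had the highest list median, 0.12 over 10 measured genes. RUNX2, LMO2 and MEF2C, regulators of haematopoietic transcription, were at 0.34, 0.31 and 0.47 without overlap and did not pass (limma adjusted p = 0.0560, 0.0620 and 0.0720). Each passed with dim genes left out. Of the 10 measured genes 6 were above 0 and 4 below. The groups did not overlap for 6 higher genes and 1 lower gene, against 10.2% and 9.22% of all genes. The lower gene, named after its values were seen, was the receptor tyrosine kinase FLT3, at 9.49, 9.45 and 9.43 with cortistatin A, against 9.67, 9.60 and 9.69 with DMSO (change -0.20 ± 0.05, limma adjusted p = 0.196). The other 6 listed genes, HOXA5, HOXA6, HOXA7, HOXA9, HOXA10 and RUNX1, were not among the genes tested, so the list median does not cover them. Averaged over its probe sets RUNX2 was at 0.097.

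**Figure D3:**
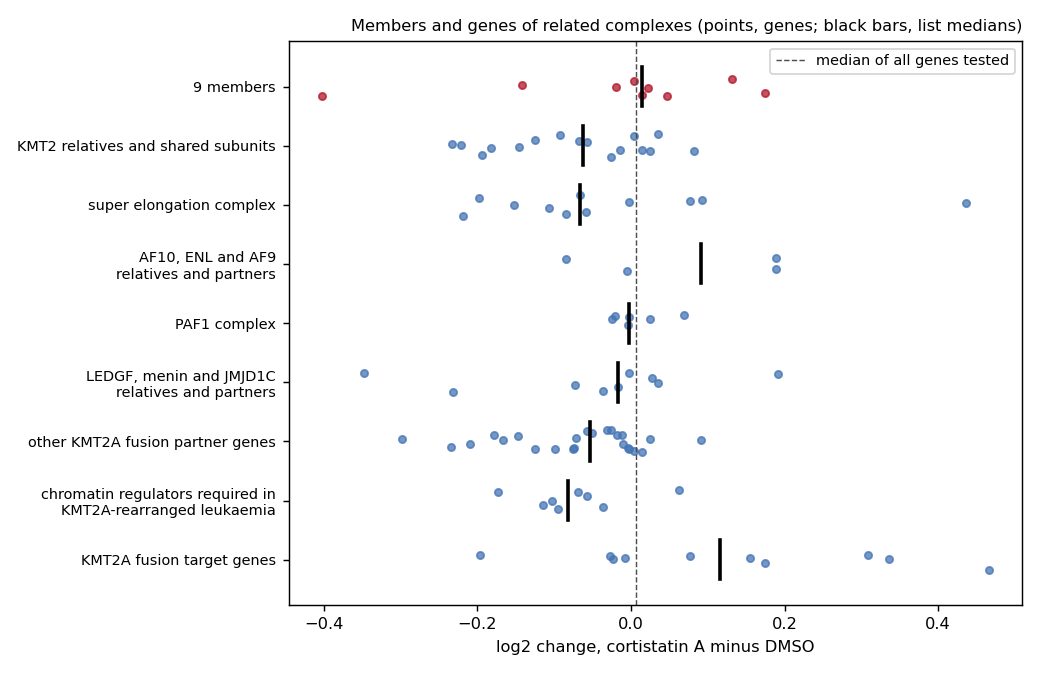
Log2 change, cortistatin A minus DMSO (x axis), of each measured gene (points) in the 9 members and in 8 lists of related genes; black bars are medians and the dashed line is the median of all genes. List medians run from -0.08 to 0.12, and ELL2 at 0.44 and KDM3A at -0.35 stand apart from their lists.

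Of 10 myeloid and leukaemia markers 8 were measured and all 8 were bright, with a mean level of 7.11 to 7.23 with cortistatin A and 7.09 to 7.21 with DMSO. The T cell list averaged 3.19 to 3.21 with cortistatin A and 3.18 to 3.26 with DMSO. CD3D and CD3E were bright, and CD2, CD3G and CD8A dim. The B cell list averaged 3.97 to 4.16 and 3.87 to 4.09, with CD79A, CD79B and PAX5 bright and MS4A1 dim. The erythroid list of 2 measured genes, both bright, averaged 4.17 to 4.43 and 4.19 to 4.36. The epithelial and stromal list averaged 3.98 to 4.06 and 3.997 to 4.10, with KRT18 and COL1A1 bright and the rest dim. KRT18, at 7.04 with cortistatin A and 7.18 with DMSO, stood above the myeloid marker SPI1, at 4.36 in both groups. Every list held bright genes, so brightness alone does not separate cell types here. The mean 3' minus 5' signal over all 21 pairs of control probe sets, bacterial spikes included, a signal gap that narrows with longer labelled RNA, was 0.602 to 0.655 with cortistatin A and 0.535 to 0.629 with DMSO (exact permutation test, two-sided, p = 0.5). Over the 4 human controls it was 1.84 to 1.91 with cortistatin A and 1.80 to 1.88 with DMSO (exact permutation p = 0.2). Over the 3 human mRNAs left without the ribosomal control, which is not polyadenylated, it was 2.81 to 2.92 with cortistatin A and 2.76 to 2.78 with DMSO (exact permutation p = 0.1, the lowest value possible with 3 arrays a group). The groups did not overlap for the last of these, nor for beta-actin, 1 of these mRNAs, taken alone. Beta-actin was at 1.88 to 2.08 with cortistatin A and 1.69 to 1.79 with DMSO (exact permutation p = 0.1). It was not used as a covariate by itself. Both human sets were chosen after the value over all pairs had been seen. With the signal over all pairs, 4 human controls or 3 human mRNAs as a covariate limma called 0 genes. An unadjusted p under 0.05 was reached by 1997, 2161 and 1934, in the same order. The median of the relatives of AF10, ENL and AF9 was 0.09, 0.01 and -0.02 with these covariates, and that of the PAF1 complex -0.0034, -0.0001 and -0.09. That of the KMT2A relatives was -0.04, -0.07 and -0.11, and that of the chromatin regulators -0.07, -0.10 and -0.13. The fusion target genes stayed at 0.12, 0.10 and 0.11. A block for the replicate number also gave 0 calls. What brought the count to 0 in these fits was not tested. The 3-mRNA signal separated the groups, so that fit can hardly tell its part from that of treatment. What part RNA length has in the values above was otherwise not tested. With any 1 array left out limma called 0 to 4 genes in all and none of the 9.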

How the data were processed

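RNA of MV4;11 cells was hybridised to single-colour Affymetrix Human U133 Plus arrays, 3 per group. RNA was isolated by column kit or TRIzol, per the labels' protocols, with no record here of which array used which. The deposited table holds log2 values from RMA with the affy package, per the submitters' processing notes, and its log2 scale was read from its range of 0.81 to 13.84. Detection calls, scan dates and a genome build were not used here. Arrays have no sequencing depth; precision is limited by their number.

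Of 54675 probe sets 41091 name 1 gene in the platform annotation, with symbols updated through gene IDs for 41037. The probe set with the highest mean stood for a gene. limma 3.58.1 in R 4.3.3 (lmFit, eBayes, group as the only term, two-sided) was fitted to all 19775 genes and, for single probe sets, to all 54613 probe sets other than controls, with Benjamini-Hochberg adjustment over each table. Errors are SE. The fit was tested on simulated data, with a threshold on recovery only for changes far larger than those of the members. Recovery of changes as small as theirs is not given here. No set test was run.

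The members and lists were chosen with earlier results of these data known. Named were all members and, of each list, the 3 genes with the smallest p. No pair of arrays shared more than 678 identical values.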

Additional observations from a re-analysis of the deposited data

How the results depend on the processing

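No member was called in 17 of 18 alternatives. The exception was trend and robust variances, which called 1 member, AFF1, and 1 of the members' probe sets. With the replicate block, the RNA length covariates and some single arrays left out, 0 genes were called in the whole table. Those settings could therefore call no member. MLLT3 was not in the fits with dim genes left out or values floored, nor MEN1 in that without the _x_at and _s_at types. For the lists 6 genes were called with dim genes left out, 6 with values floored at the median, 2 with a further quantile normalization, 10 with trend and robust variances and 5 at an adjusted p under 0.1, against 0 otherwise. Over all genes the count of 115 (76.5% higher) became 321 with dim genes left out (66.0% higher), 334 with values floored at the median (66.2%), 76 with the mean of all probe sets, 54 without the _x_at and _s_at types, 61 with housekeeping centring (70.5%), 762 with trend and robust variances (59.7%), 260 at an adjusted p under 0.1, and 0 with the 3' minus 5' signal of control transcripts (RNA length index) in the fit, whether over all 21 pairs, 4 human controls or 3 human mRNAs. The index over all pairs was the planned one, and the human ones were chosen after seeing the data. With the replicate number as a block it was 0 (2243 at an unadjusted p under 0.05). Same-numbered arrays did not deviate together (r = -0.05, 0.0095 and 0.02 across genes). This gave no sign that the numbers pair the arrays, but a correlation over all genes cannot exclude it. Without 1 array the count was 0 to 4, and that of members, list genes and members' probe sets was 0.

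The members' signs held in 130 of 150 comparisons with an alternative. Part of these could not turn, so the count overstates how stable the signs were. The replicate block, dim genes left out and the variance trend keep the change of a gene as it was. The signs that turned belong to changes near 0 and to MLLT3. KMT2A averaged over its probe sets was at -0.036, against -0.025 with housekeeping centring, -0.043 with the 3-mRNA index and -0.014 to 0.047 with 1 array left out. MEN1 was at -0.036 with housekeeping centring, -0.017 with the index over all pairs, -0.015 with the 3-mRNA index and -0.043 to 0.066 with 1 array left out. PSIP1 was at -0.018 with housekeeping centring and -0.0039 with the 3-mRNA index. DOT1L was at -0.082 with the 3-mRNA index, -0.0051 with the 4-control index and -0.018 to 0.10 with 1 array left out. MLLT1 averaged over its probe sets was at 0.094, against 0.020 with the index over all pairs and -0.055 to 0.016 with 1 array left out. MLLT3 was at 0.13 without the _x_at and _s_at types. Of the named list genes, with the 3-mRNA index YEATS4 was at -0.12, PAF1 at -0.11, SKIC8 at -0.037 and POGZ at 0.00050, and with the index over all pairs RTF1 at 0.0025. Averaged over probe sets MLLT6 was at 0.0086, HDGFL3 at -0.0032, CREBBP at 0.0050 and SUZ12 at 0.029. HDGFL3 was at -0.19 without the _x_at and _s_at types, and SKIC8 at -0.015 with housekeeping centring. With 1 array left out PAF1 ran from -0.0091 to 0.11 and RTF1 from -0.064 to 0.011. Housekeeping centring moved the median of all genes from 0.0065 to -0.033. The cause of these changes was not tested. The members' dim probe sets, 17 of 41, have means of 1.72 to 3.39 and limit what can be said of MLLT3.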

Other observations

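By the root mean square difference of values centred on their mean over the 6 arrays, the genes most like MLLT3 were PGM2L1 (0.03 on the log2 scale), DNMBP (0.05) and the antisense transcript PAN3-AS1 (0.06), with changes of -0.39, -0.39 and -0.33, none of which passed (limma adjusted p from 0.131 to 0.186). The likeness is over n = 6 arrays in 2 groups, and these 3 were picked from 19775 genes.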
